A study of Saccharomyces cerevisiae with 4 samples.

Results

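The comparison set the cdc102-1 array at 28 degree against the CDC102 wild-type array at 28 degree, 2 of the 4 arrays of the study, with 1 array on each side and no replicate. The 2 arrays were chosen by their titles, and 5325 deletion strains carried a ratio on both. Each array followed a pool of Saccharomyces cerevisiae deletion strains, in which every gene deletion is marked by 2 short DNA tags that can be amplified from the pool and read on an array.

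Both groups came from the haploid-convertible heterozygous diploid deletion pool into which a cdc102Δ::natMX cassette had been transformed, so the chromosomal CDC102 deletion was shared by all groups. In the cdc102-1 group the pool next received the cdc102-1 allele, and in the CDC102 group the wild-type gene, each on a centromere-based plasmid marked with URA3. After sporulation, spores were spread on MM-Ura and on MM-Ura with Nat (nourseothricin, which selects natMX) and the haploid colonies were harvested after 2 days at 28 degree. A matching pair at 30 degree is given below only beside the strains of the 28 degree pair. Tags were amplified from genomic DNA of each harvest. The MM-Ura harvest was labelled with Cy5 and the MM-Ura+Nat harvest with Cy3, without a dye swap.

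The deposited value was the log2 ratio of the 2 dyes. The numerator was not stated. The Cy5 harvest is named as the first source in the labels, which makes Cy5 the likely numerator, and a higher ratio would then mean relatively fewer cdc102Δ double mutants among the haploids of that deletion. Results are therefore stated for the ratio itself, as higher or lower. The description of the wild-type array also calls its sporulated pool cdc102-1 in 1 place, and the title was followed.

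CDC102 is another name of PSF2 (YJL072C), which encodes a subunit of GINS, the essential complex that binds the Mcm helicase together with Cdc45 at replication origins and forks. When a query allele is crossed through a deletion collection, double mutants that grow worse than either single mutant are lost from the pool, and genes with related roles are often found among them. The wild-type plasmid array provides the background for the same cassette and the same selections.

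Each strain's ratio was averaged over its spots, with a median of 2 spots per strain, and each array was then set to 0 at its median strain. The medians removed were -0.19 on the cdc102-1 array and -0.18 on the CDC102 array. The strain ratios were somewhat wider with cdc102-1 (SD 0.73 over strains) than with CDC102 (SD 0.65). The upper tail differed more than the lower tail: 133 strains lay at least 1 above the median with cdc102-1 and 38 with CDC102, while 632 and 608 strains lay at least 1 below it. Across strains, the arrays had a Pearson correlation of 0.70, a description over points that share the tag set and the deletion pool. The lower tail was thus nearly as full without the mutant allele as with it. Within an array, the 2 tags of a strain had a correlation of 0.43 with cdc102-1 and 0.31 with CDC102.

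**Figure D1:**
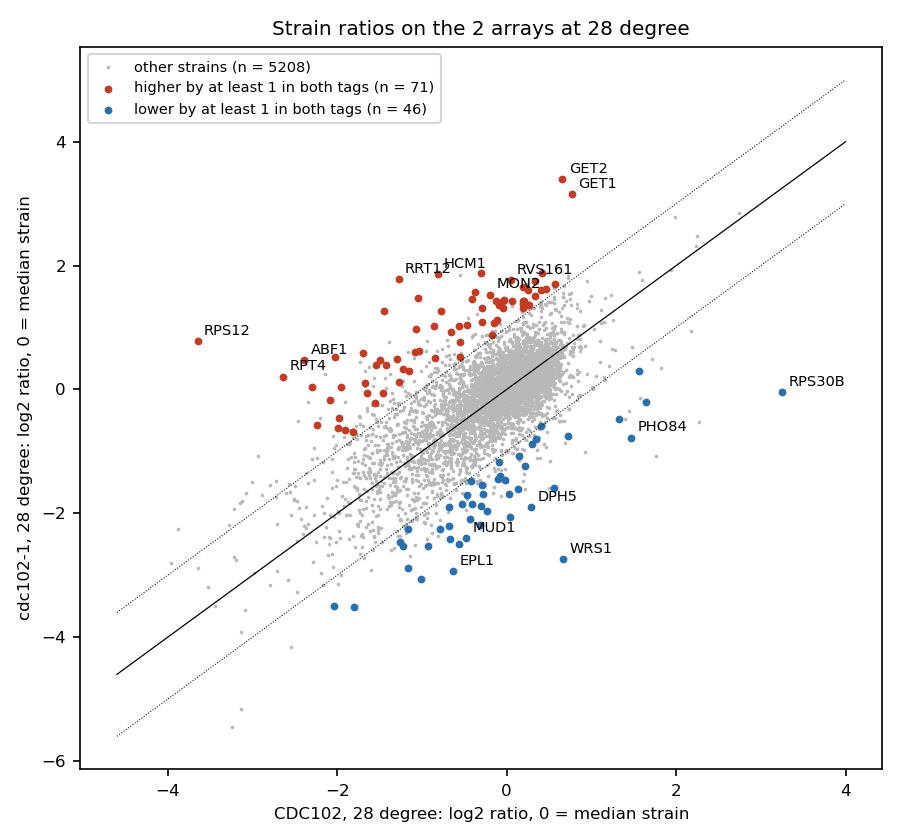
Log2 ratio of each strain with the CDC102 plasmid (horizontal) and the cdc102-1 plasmid (vertical) at 28 degree, with 0 at each array's median strain, the solid line at equal ratios and dotted lines at a difference of 1. The 71 strains in red and 46 in blue passed the size of 1 in both tags, and GET1 and GET2 stand alone above 3 on the vertical axis.

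The difference, cdc102-1 minus CDC102, had a median of 0.0088 and an SD of 0.54 over the 5325 strains. Strains were counted by size, at 1 or more on the log2 scale in either direction, without a test, since no replicate array exists. By this size 211 strains (3.96% of all) were higher with cdc102-1 and 159 (2.99%) were lower. The nearest strains on either side of the bound were MFM1 at 1.0013 and MPS1 at 0.9992 for higher ratios, and SLM5 at -1.0005 and CDC19 at -0.9952 for lower ratios, so the bound separates no distinct classes.

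The only internal check was whether both tags of a strain gave the same difference. Of the 5292 strains with both tags, 71 (1.34%) were higher by at least 1 in each tag and 46 (0.869%) were lower by at least 1 in each. Among the 206 higher strains with both tags measured, 181 had tags of the same sign and 25 had tags of opposite sign. Among the 152 lower strains, 134 had the same sign and 18 opposite signs. Over all strains, 1728 were positive in both tags and 1668 were negative in both. The higher and lower strains were picked on the average of these same tags, which favours equal signs. Their sign counts are therefore no separate check of the calls. Agreement was partial: the tags' differences correlated at 0.24 over all strains, and the SD of the halved tag difference was 0.42. It was tighter where a strain had more spots. In the 793 strains with at least 6 spots per tag the correlation was 0.49 and the SD 0.27, against 0.21 and 0.44 in the rest. Those 793 strains included 26 that were higher and 10 that were lower. Both shares were below those over all strains (3.96% and 2.99%), and the lower strains fell further below.

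**Figure D2:**
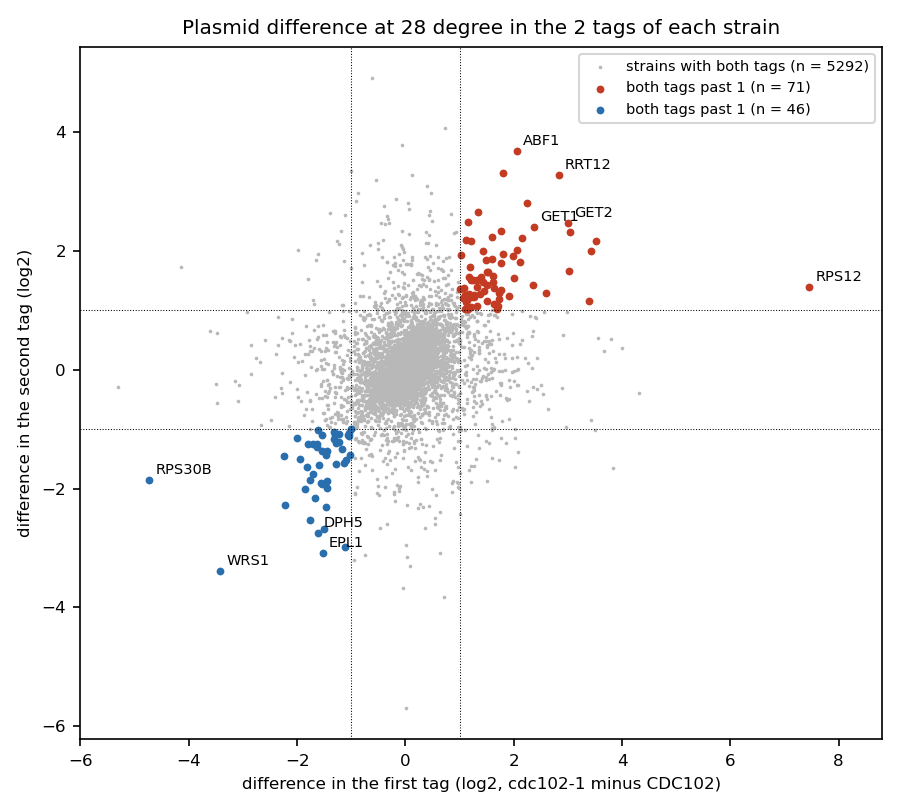
Difference at 28 degree (log2, cdc102-1 minus CDC102) in the first tag (horizontal) and second tag (vertical) of 5292 strains, with dotted lines at 1 and -1. The coloured strains passed 1 in both tags; many grey strains passed it in one tag and lay near 0 in the other.

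The pair at the top of the cdc102-1 array was GET2 and GET1, which encode the endoplasmic reticulum receptor for tail-anchored membrane proteins. GET2 had a ratio of 3.40 with cdc102-1 and 0.66 with CDC102, a difference of 2.74, with 3.01 in the first tag and 2.47 in the second. GET1 stood at 3.15 and 0.77, a difference of 2.38, with 2.37 and 2.40 in its tags. Both were above the median strain on the wild-type array as well. GET3, the ATPase that delivers the proteins to this receptor, had ratios of 1.5 and 0.67, a difference of 0.83. The upstream members were smaller, with differences of 0.51 for MDY2, 0.20 for SGT2 and 0.12 for GET4. All 6 members were positive in both tags, and the list had a median difference of 0.67. At 30 degree the differences were 3.46 for GET1, 2.64 for GET2 and 2.21 for GET3.

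Genes of Golgi, endosome and vacuole traffic had mostly higher ratios with cdc102-1. Over 8 lists of such genes, the GET pathway included, 65 of 75 strains (86.7%) had a positive difference, against 2705 of 5325 for all strains, and 56 were positive in both tags. Their median was 0.53. By size, 10 of the 75 (13.3%, against 3.96% of all strains) were higher by at least 1, so most positive members lay below the bound. Of the 75, 1 was lower by at least 1, against 2.99% of all strains. The group's median ratio was 0.63 with cdc102-1 and 0.19 with CDC102. At 30 degree 67 of 75 (89.3%, against 51.6% of all strains) were positive, with a median of 0.80. The lists were written with earlier results of these data known, so the pooled shares are a description only. Left out of the pool were, among others, the vacuolar ATPase, actin patch endocytosis and Golgi mannosyltransferase lists. These had 9 of 20, 9 of 17 and 8 of 13 strains positive at 28 degree.

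At the trans-Golgi, MON2, a scaffold protein related to the large Arf exchange factors, had ratios of 1.53 with cdc102-1 and -0.19 with CDC102, a difference of 1.72. ARL1, an Arf-like GTPase of the trans-Golgi, stood at 1.37 and -0.09, a difference of 1.46. SYS1, the Golgi membrane protein that recruits Arl3, differed by 0.70. These 3 were positive in both tags, whereas ARL3 itself had tags of -0.52 and 1.02. The acetyltransferase NatC, which modifies Arl3, was not higher: MAK3 and MAK10 differed by -0.13 and 0.11, and MAK31 was lower at -1.69 against 0.03, a difference of -1.73 with -1.81 and -1.64 in its tags. The 8 genes of this list had a median of 0.20.

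Ypt6 is the Rab GTPase of endosome-to-Golgi transport, Ric1 and Rgp1 form its exchange factor, and GARP tethers the vesicles. All 7 members of this list were positive, with a median of 0.58. RIC1 had ratios of 0.61 and -1.08, a difference of 1.69. RGP1 stood at 1.32 and 0.19, a difference of 1.13. VPS51, a GARP subunit, stood at 1.36 and 0.25, a difference of 1.11. The other GARP subunits were lower in size, at 0.58 for VPS52, 0.48 for VPS54 and 0.24 for VPS53, and YPT6 itself was at 0.50. The COG complex, the tether within the Golgi, had 4 of 4 non-essential subunits positive with a median of 0.69, led by COG6 at 0.97 and COG8 at 0.90.

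Retromer, the coat that recycles receptors from endosomes, gave VPS35 at 1.25 with cdc102-1 and 0.18 with CDC102, a difference of 1.07. VPS5, PEP8 and VPS29 followed at 0.76, 0.73 and 0.71, with both tags positive in each. VPS17, the partner of Vps5, had opposite tags of -1.14 and 1.83. The sorting nexins SNX4 and SNX41, which act in a separate recycling route, were at -0.07 and -0.04. The list of 10 had a median of 0.52, with 8 positive.

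The ESCRT complexes sort ubiquitinated membrane proteins into multivesicular bodies. Of 18 members, 14 were positive, with a median of 0.53. The ESCRT-II subunits were close together at 1.19 for VPS25, 0.94 for SNF8 and 0.91 for VPS36, and the ESCRT-III subunits VPS20, DID4 and VPS24 were at 0.98, 0.96 and 0.64. DOA4, the ubiquitin hydrolase that acts at the end of the pathway, was at -0.63. The HOPS and CORVET tethers of the vacuole and endosome had 12 of 13 members positive and a median of 0.57. The highest were VPS33 at 0.88 and VPS3 at 0.85, so none reached 1, where 3.96% of all strains did. The clathrin adaptors AP-1 and AP-3 had 8 of 9 positive and a median of 0.53. APL2, a large AP-1 subunit, was at 0.92, and APL6, the highest at 1.26, rested on tags of 0.39 and 2.13.

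The vacuolar ATPase, the proton pump of the vacuole, lay near 0. The 20 strains of its list had a median of -0.03, with 9 positive. The 1 member at or above 1 was NHX1, the endosomal sodium and proton exchanger, at 1.70 against 0.25, a difference of 1.46 whose tags were 2.34 and 0.57. VMA8, a subunit of the pump, was at -0.83, with -0.82 and -0.85 in its tags.

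**Figure D3:**
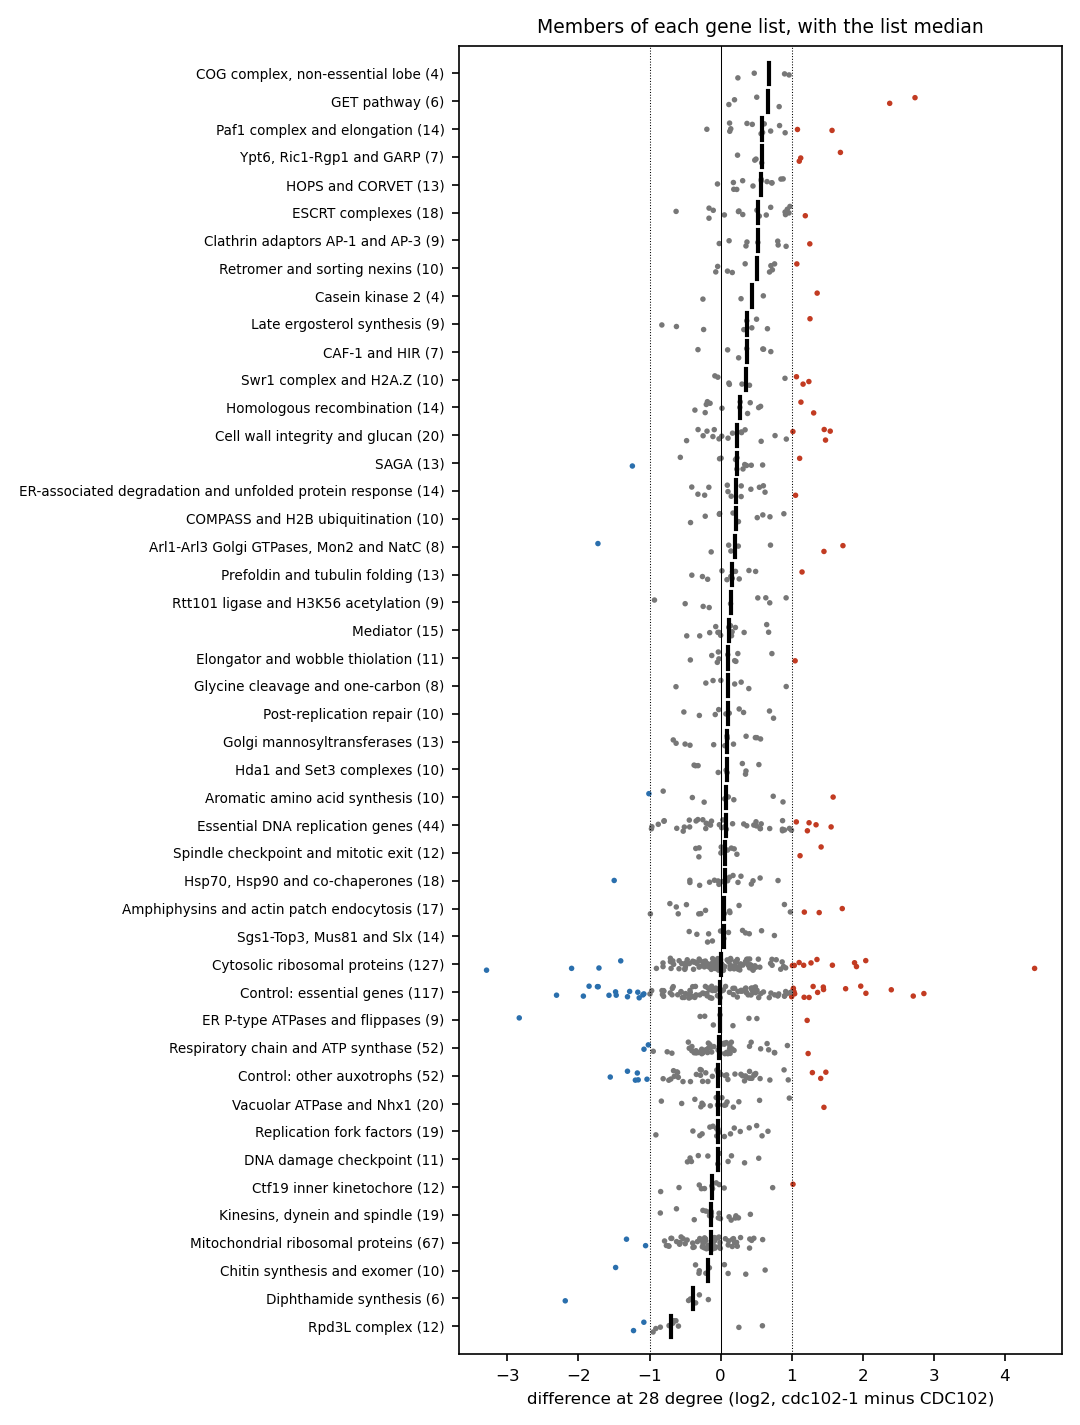
Difference at 28 degree (log2, horizontal) of every measured member of each gene list (vertical, number of members in brackets), with a black bar at the list median, red points at 1 or more, blue points at -1 or less and grey points between. The traffic lists lie near 0.5 to 0.7 at the top, with the Arl1 list lower at 0.20, and the Rpd3L list is lowest at -0.70.

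Neighbouring functions of the membrane and cell wall held single strong members within lists of mixed sign. RVS161 and RVS167 encode the amphiphysins of endocytosis; RVS161 stood at 1.76 with cdc102-1 and 0.05 with CDC102, a difference of 1.71, and RVS167 differed by 0.98. LSB3, an actin patch protein, stood at 1.51 and 0.33, a difference of 1.18. EDE1, an early endocytic scaffold, differed by 1.39, but stood at 0.11 with cdc102-1 and -1.28 with CDC102. It had no measured difference at 30 degree. The same list of 17 had a median of 0.05, since SRV2, SLA2 and CAP2 were at -0.99, -0.71 and -0.62. In the cell wall integrity list, PTC1, a protein phosphatase, differed by 1.54 and NBP2, the adaptor that brings Ptc1 to its kinase targets, by 1.46. ROT2, a glucosidase of the endoplasmic reticulum, was at 1.48, with 1.39 and 1.56 in its tags. GAS1, a glucan-modifying enzyme, was at 1.02 with tags of 1.84 and 0.19. The kinases of that pathway were near 0, with BCK1 at -0.24 and SLT2 at 0.11, and the list of 20 had a median of 0.23. SPF1, the endoplasmic reticulum P-type ATPase that removes mislocalised tail-anchored segments, differed by 1.22, with 1.17 and 1.27 in its tags.

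The remaining lists of membrane biology had medians of 0.37 for late ergosterol synthesis (9 strains, ERG4 at 1.26), 0.22 for degradation at the endoplasmic reticulum and the unfolded protein response (14 strains, SCJ1 at 1.06), 0.09 for Golgi mannosyltransferases (13 strains), -0.01 for P-type ATPases and flippases (9 strains) and -0.18 for chitin synthesis and exomer (10 strains). NEO1 in the flippase list was at -2.83, but its tags were 0.02 and -5.68. CHS5 in the chitin list was at -1.48 with tags of -3.60 and 0.65. Neither of these low values was therefore shared by both tags.

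Among chromatin genes the strains of the Rpd3L histone deacetylase complex had mostly lower ratios. Of its 12 strains, 10 were negative, 9 of them in both tags, and the list median of -0.70 was the lowest of the 46 lists. SDS3 had ratios of -1.08 with cdc102-1 and 0.15 with CDC102, a difference of -1.22. RXT2 stood at -2.36 and -1.28, a difference of -1.08 with uneven tags of -0.36 and -1.80. UME1 and PHO23 followed at -0.95 and -0.91, and the catalytic subunit RPD3 and the scaffold SIN3 were at -0.59 and -0.63. The 2 positive members were ASH1 at 0.59 and RXT3 at 0.26. At 30 degree the list median was -0.20, with 3 of 12 positive. PHO23 and RXT2 kept differences of -1.17 and -1.19 there, whereas SIN3 and RPD3 were at -0.08 and -0.07. The tags of RXT2 at 30 degree were -1.81 and -0.57.

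Genes of transcription elongation had mostly higher ratios. In the Paf1 complex and elongation list 13 of 14 strains were positive, with a median of 0.58. CTK3, a subunit of the kinase that phosphorylates the RNA polymerase II tail, stood at 1.22 against -0.36, a difference of 1.57, and its partners CTK2 and CTK1 were at 0.59 and 0.57. RTF1 and ELF1 were at 0.91 and 0.83. RCO1 was at 1.08 with tags of 3.82 and -1.66. The Swr1 complex, which deposits the histone variant H2A.Z, had 8 of 10 positive with a median of 0.36; VPS71, BDF1 and HTZ1, the variant itself, were at 1.24, 1.16 and 1.07. SWR1, the catalytic subunit, was at 0.12, and its ratio was high with both plasmids, 1.02 with cdc102-1 and 0.90 with CDC102. ARP6 (1.53 and 1.23) and YAF9 (1.08 and 1.12) were likewise high on both arrays.

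Other chromatin lists lay closer to 0. Medians were 0.37 for the CAF-1 and HIR histone chaperones (7 strains, 6 positive), 0.23 for SAGA (13), 0.21 for COMPASS and histone H2B ubiquitination (10), 0.14 for the Rtt101 ligase and H3K56 acetylation (9), 0.12 for Mediator (15) and 0.09 for the Hda1 and Set3 complexes (10). In SAGA, NGG1 was at 1.11 and ADA2, its partner in the acetyltransferase module, at -1.24.

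The 19 non-essential replication fork factors had a median of -0.03, with 8 positive. None was past 1 in either direction, where 3.96% of all strains were higher and 2.99% lower. With 19 strains, a count of none says little at such shares. CTF4, which links GINS to DNA polymerase alpha, was at -0.11, and the fork protection genes TOF1, MRC1 and CSM3 were at -0.03, -0.04 and 0.05. RAD27, the flap endonuclease of Okazaki fragment maturation, had the largest size in this list at -1.24 against -0.33, a difference of -0.91 with -0.92 and -0.90 in its tags. On the positive side DPB3, a subunit of DNA polymerase epsilon, was at 0.67, POL32 at 0.58 and CTF18 at 0.51. The checkpoint list of 11 had a median of -0.04, with DUN1 at 0.54 and RAD24 at -0.47.

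Homologous recombination gave a median of 0.27 over 14 strains. RAD57 and RAD52 were its members past 1, at 1.31 and 1.13, and both were low with the wild-type plasmid, at -1.01 and -0.57. With cdc102-1 they stood at 0.31 and 0.56. Post-replication repair (10 strains) had a median of 0.10, with RAD18 at 0.75 and RAD5 at 0.69, and the Sgs1, Mus81 and Slx list (14) had 0.04. Of 44 essential replication genes, 5 (11.4%, against 3.96% of all strains and 14.5% of a control list of essential genes) were higher by at least 1. None was lower by at least 1, against 2.99% of all strains and 12% of that control list. The 44 strains had a median of 0.07. CDC45, the GINS partner in the helicase, was at 0.33 with cdc102-1 and -1.23 with CDC102, a difference of 1.56. MCM4 and RFC2 were at 1.22 and 1.34, the latter with tags of 0.43 and 2.26. At 30 degree CDC45 and MCM4 were at -0.10 and -0.02, and RFC2 was at 1.63.

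For chromosome segregation, the Ctf19 inner kinetochore list (12 strains) had a median of -0.12, with NKP2 at 1.02. The kinesin, dynein and spindle list (19) had -0.13, and VIK1 in it was at -0.85. Spindle checkpoint and mitotic exit (12) had 0.06 and prefoldin and tubulin folding (13) 0.17. LTE1, a regulator of mitotic exit, stood at 1.75 against 0.33, a difference of 1.42 with 1.32 and 1.52 in its tags. PFD1, a prefoldin subunit, was at 1.15 with 1.13 and 1.17. In casein kinase 2 the regulatory subunit CKB2 was at 1.36 and the catalytic subunits CKA1 and CKA2 at 0.60 and -0.25, with a median of 0.45 over 4 strains.

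Protein synthesis lists differed in sign. The 67 mitochondrial ribosomal strains had 52 negative differences and a median of -0.14. None was higher by at least 1, against 3.96% of all strains. By the same size 2 were lower (2.99%, the same share as over all strains), MRPL24 at -1.32 and MRPL8 at -1.06. At 30 degree the median of this list was -0.18. All 6 diphthamide synthesis strains, which make the modified histidine of elongation factor 2, were negative with a median of -0.39. DPH5, the methyltransferase of that pathway, was at -1.90 with cdc102-1 and 0.29 with CDC102, a difference of -2.19, and at -1.48 for the difference at 30 degree. The 127 cytosolic ribosomal strains had a median of 0.00034 and counted 11 higher (8.66%, against 3.96% of all strains) and 4 lower (3.15%, against 2.99%). Elongator and wobble thiolation (11), glycine cleavage and one-carbon metabolism (8), aromatic amino acid synthesis (10) and the Hsp70 and Hsp90 chaperones (18) had medians of 0.10, 0.10, 0.08 and 0.06. The respiratory chain and ATP synthase list (52) had -0.03.

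The largest single differences came mostly from strains whose ratio was low on the wild-type array. RPS12, a ribosomal protein of the small subunit, stood at 0.78 with cdc102-1 and -3.65 with CDC102, a difference of 4.42. Its tags differed by 7.46 and 1.38, and the first tag on the CDC102 array was at -6.47, the lowest value the table writes (a ratio of 0.01). RRT12, a protease of the spore wall, was at 1.78 and -1.28, a difference of 3.05 with 2.83 and 3.28 in its tags. ABF1, a DNA-binding regulator, was at 0.47 and -2.39, and RPT4, a proteasome ATPase, at 0.21 and -2.63. In all 4 strains the CDC102 ratio lay more than 1 below the median, whereas that of GET1 and GET2 lay above it.

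HCM1, a forkhead transcription factor of S phase, had at least 6 spots per tag and stood at 1.86 and -0.82, a difference of 2.68 with tags of 3.03 and 2.32. Others with differences between 1.96 and 2.71 were TAF9 (a TFIID and SAGA subunit), ARP2 (actin nucleation), APE3 (a vacuolar aminopeptidase), YEF3 (a translation elongation factor), HTL1 (a subunit of the RSC remodeller), YAE1 (assembly of the iron-sulfur protein Rli1 of ribosome recycling), ECM38 (gamma-glutamyltranspeptidase), UTR1 (an NAD kinase) and AAD14 (a putative aryl-alcohol dehydrogenase). All 9 were below -0.5 on the wild-type array, from -0.77 for ECM38 to -2.30 for YEF3.

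On the lower side WRS1, the cytoplasmic tryptophanyl-tRNA synthetase, was at -2.74 with cdc102-1 and 0.67 with CDC102, a difference of -3.41 with tags of -3.43 and -3.39. RPS30B, another small subunit protein, was near the median with cdc102-1 at -0.04 and at 3.25 with CDC102, a difference of -3.29 with tags of -4.73 and -1.86. PHO84, the high-affinity phosphate transporter, was at -0.78 and 1.47, a difference of -2.25. MUD1, a protein of the U1 snRNP, had 6 spots per tag and stood at -2.39 and -0.48, a difference of -1.91. EPL1 (NuA4 acetyltransferase), TAF12 (TFIID and SAGA), RPL20A (ribosome), RPB9 (RNA polymerase II), OST2 (oligosaccharyltransferase), RAD3 (TFIIH helicase) and SEC23 (COPII coat) had differences between -1.85 for SEC23 and -2.31 for EPL1.

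Many of these extremes, such as ABF1, RPT4, WRS1 and RAD3, are deletions of essential genes, whose haploids do not grow. In a list of 117 essential genes the SD of the difference was 0.95, against 0.54 for all strains, and 17 (14.5%) were higher and 14 (12%) lower by at least 1. The median of that list was -0.01. The 52 strains of other auxotrophs had a median of -0.03, with 3 higher (5.77%) and 6 lower (11.5%), against 3.96% and 2.99% of all strains. Essential strains were thus over the background share in both directions at once, and their part in the single extremes was not tested.

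The 30 degree pair gave a second look at the same strains with other arrays; whether its spores came from the same sporulated pools is not given in the sources used here. There, 408 of 5288 strains (7.72%) were higher with cdc102-1 and 419 (7.92%) lower by at least 1. Of the 71 strains higher in both tags at 28 degree, 70 had a value at 30 degree, 53 had the same direction and 35 (50%) were again higher by at least 1. The share differed with the ratio on the wild-type array at 28 degree. Of 30 strains within 0.5 of the median there, 22 (73.3%) were again higher by at least 1, against 6.1% of all strains at that level. In that class 28 had the same direction, against 53.8% of all strains at that level. There 1 was lower by at least 1, against 4.12%. Of 37 strains under -0.5, 10 (27%) were again higher, against 10.5% of all strains at that level. Of the same 37, 8 were lower by at least 1, a share near the 20.4% of all strains at that level. The median difference at 30 degree was 1.41 in the first class and 0.27 in the second. The difference between the classes was not tested. The CDC102 ratio is subtracted in the difference at 28 degree, so picking strains as higher favours low CDC102 ratios. The class under -0.5 includes deletions of essential genes, such as ABF1 and RPT4. The make-up of the classes was not compared.

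The 30 strains within 0.5 included the traffic genes MON2, ARL1, VPS25, VPS51 and RGP1 and the membrane and wall genes RVS161, PTC1, NBP2, ROT2, LSB3, SPF1 and SCJ1. SAC1, a phosphoinositide phosphatase of the endoplasmic reticulum and Golgi, was among them at 1.31 against -0.29, a difference of 1.60 at 28 degree and 1.37 at 30 degree. At 30 degree RVS161 was at 2.49, NBP2 at 2.42, ARL1 at 2.18 and MON2 at 2.04, while ROT2 was at 0.81 and RGP1 at 0.53. HTL1, APE3, POP6, IML2 and AUR1 were higher in both tags at 28 degree and lower by at least 1 in both tags at 30 degree. IML2, at -0.30 with CDC102, was the 1 of these from the 30 strains within 0.5.

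Of the 46 strains lower in both tags, 45 had a value at 30 degree, 29 had the same direction and 13 (28.9%) were again lower by at least 1. By the wild-type ratio these were 5 of 15 strains under -0.5, 7 of 23 within 0.5 and 1 of 7 above 0.5, against 20.4%, 4.12% and 5.07% of all strains at those levels. MUD1 was lower again at -2.18 and DPH5 at -1.48. SOL2 and MSS4 were higher by at least 1 in both tags at 30 degree.

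**Figure D4:**
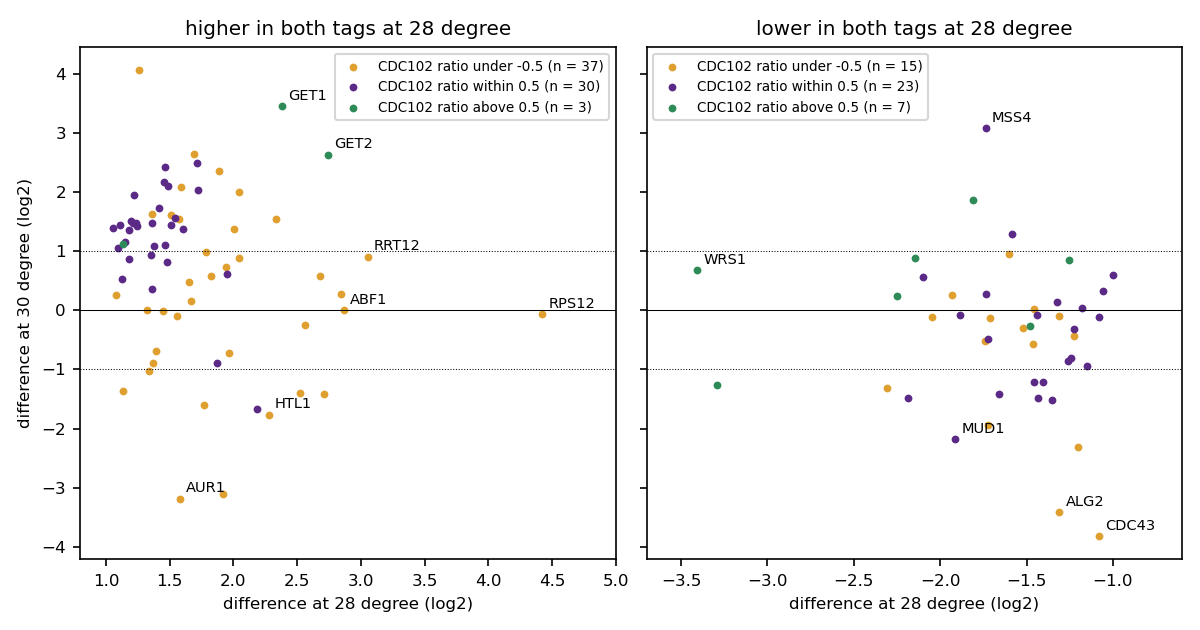
Difference at 30 degree (log2, vertical) against the difference at 28 degree (log2, horizontal) for strains higher (left) and lower (right) by at least 1 in both tags at 28 degree, coloured by the CDC102 ratio at 28 degree, with lines at 1, 0 and -1. Of the 30 purple strains on the left 22 lie above 1, and the 37 orange strains spread to both sides of 0.

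The deleted genes were also compared by position, using the gene order of the RefSeq R64 annotation. Chromosome III had the highest share of higher strains, 16 of 135 (11.9%), while the other chromosomes had between 1.03% and 5.34%. It also had 7 lower strains (5.19%, against 2.99% of all strains). In both tags 9 of its 135 strains (6.67%, against 1.34% over all chromosomes) were higher, among them RRT12, HCM1, HTL1, PAT1, RRP43, RVS161, CSM1 and SAT4. At 30 degree 2 of those 9, RVS161 and CSM1, were again higher by at least 1. Lower in both tags were 4 of the 135, SLM5, BUD23, MAK31 and SOL2, against 0.869% over all chromosomes. Chromosome III was thus over the background share in both directions.

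Runs of adjacent strains with higher ratios were strongest on chromosomes IV and III, with others on II, XII and XVI. In windows of 21 neighbouring strains, the median difference ranged from -0.19 to 0.22 between the 5th and 95th percentiles of 5001 windows. The highest window ran from DBP10 to PTC1 on chromosome IV, with a median of 0.57. Its median ratio was -0.59 with CDC102 and -0.04 with cdc102-1. In it 9 strains were higher by at least 1: DBP10, PRP9, ARP2, GPM2, TSC13, NOP1, APC11, RPT2 and PTC1. Deletions of essential genes are among them, and their part in this run was not tested. A window from TVS1 to YCR087C-A on chromosome III had a median of 0.57 and 7 higher strains. Its tag medians were unlike, 0.996 and 0.36, against 0.50 and 0.51 in the chromosome IV window. At 30 degree the medians of the chromosome IV and III windows were -0.04 and 0.13. The next highest windows without shared strains, on chromosomes II, XII and XVI, had medians of 0.49, 0.41 and 0.40. At 30 degree these 3 stood at 0.39, 0.47 and 0.14. The lowest window, from LAS17 to DED1 on chromosome XV, had a median of -0.31. Adjacent genes that were both higher in both tags were SAT4 with RVS161, CSM1 with YCR087C-A, and HNT3 with RPT4, none of which overlap.

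**Figure D5:**
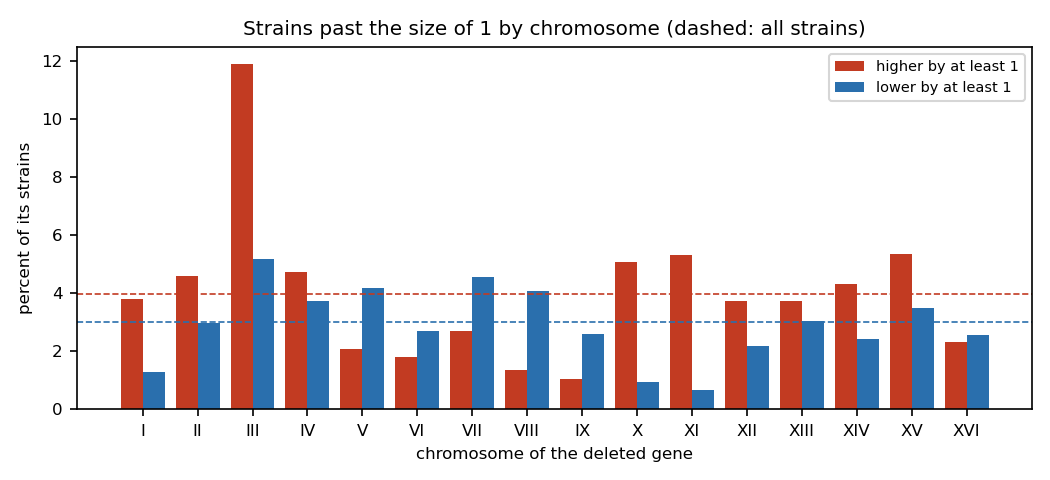
Percent of the strains of each chromosome that were higher (red) or lower (blue) by at least 1 with cdc102-1 at 28 degree, with dashed lines at the shares over all strains, 3.96% and 2.99%. Chromosome III has the tallest red bar, 11.9%.

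Near the query gene no run of large differences was seen. The PSF2 strain itself, whose deletion is at the same locus as the cassette, had ratios of -0.14 with cdc102-1 and 0.37 with CDC102, a difference of -0.51 with tags of 0.05 and -1.07. Its neighbours NET1, SMC3 and JEM1 on one side were at 0.23, -0.18 and -0.07. ARG2, YJL070C and UTP18 on the other side were at 0.31, 0.16 and 0.91. Within 50 kb the 44 strains had a median difference of -0.0012, with median ratios of -0.03 with cdc102-1 and -0.04 with CDC102. Of them 1 was higher and 1 lower by at least 1, against 3.96% and 2.99% of all strains. The higher strain was IML2 at 2.18, with tags of 2.15 and 2.22, and the lower was MRPL8 at -1.06. The PSF2 strain therefore did not settle which dye is the numerator.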

How the data were processed

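The authors deposited, per the labels, ratios read from GenePix 4000B scans with GenePix 5.1, as log2 values in 1 table of 22575 spots and 4 arrays. Neither the labels nor the table name a background or dye correction. The ratios behind the log2 values are multiples of 0.01. Genes came from the platform annotation: 18794 spots had 1 gene, 0 several and 3781 none, and 5321 of 5325 gene identifiers matched RefSeq R64. A stand-in for a ratio of 1000000 was removed (0 and 3 spots of the 28 degree arrays). Spots n and n + 10971 are the 2 tags. Spots were averaged per strain, and the median strain of each array was set to 0 (python 3.11.15, numpy 2.4.6, pandas 2.3.3); the steps were tested on simulated data.

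With 1 array per group no test was made. Named strains are the 16 highest and 12 lowest with both tags past 1 in the same direction and more than 100 kb from PSF2, PSF2 with 3 neighbours on each side, up to 4 members per list with tags of the same sign, and further members of short lists, chosen after their values were seen. Members and lists were chosen with earlier results of these data known. In 2 lists an old name that pointed to an unrelated gene was corrected. Alternatives changed centring, scaling, averaging, tags, size bound and strains left out.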

Additional observations from a re-analysis of the deposited data

Results flagged for a closer look

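Of the strains with the largest differences at 28 degree, 8 had the opposite sign at 30 degree in both tags; the difference between the temperatures was not tested. RPS12 was at 4.42 at 28 degree and -0.0574 at 30 degree, where its tags were -0.11 and -0.0041. TAF9 was at 2.71 and -1.42, APE3 at 2.52 and -1.41, HTL1 at 2.27 and -1.76, and AAD14 at 1.96 and -0.73. WRS1 was at -3.41 and 0.68, PHO84 at -2.25 and 0.24, and RPL20A at -2.10 and 0.56. With 1 tag measured at 30 degree, ARP2 was at 2.56 and -0.25, and TAF12 at -2.15 and 0.89.

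Spots without a gene name were used in no comparison. Of 3781 such spots 1236 had a difference at 28 degree, and they formed 615 pairs at the tag spacing. In 11 pairs both spots were higher with cdc102-1 by at least 1, and in 4 pairs both were lower. Among named strains with both tags, 1.34% were higher and 0.869% lower in both tags.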

How the results depend on the processing

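The main counts were 211 higher and 159 lower strains, and 71 and 46 in both tags. The first tag alone gave 331 higher and 264 lower, and the second tag alone 310 and 252; counts in both tags cannot be made there. Strains whose tags differed by under 1 within each array gave 86 and 68. A size of 0.8 gave 366 and 268, with 130 and 99 in both tags, and a size of 1.5 gave 64 and 44, with 23 and 15. Under other centring, scaling, averaging and floors on the ratio, and without listed essential genes, strains near PSF2 or chromosome III (the last chosen after seeing the data), counts ran from 193 to 244 higher and from 127 to 168 lower, and from 59 to 77 and 37 to 47 in both tags. The essential list holds 117 measured genes and is partial. Other essential deletions stayed in that setting, so it does not show counts free of them. Equal median absolute deviations moved the split most, to 244 higher and 127 lower. All 28 extreme strains kept their sign in every setting that kept them. They were picked with both tags past 1 in the same direction, so the settings with 1 tag could not turn a sign. Of the 28, 11 have tags within 1 of each other on each array. List medians kept their sign in 38 to 46 of 46 lists; those that turned had main medians between -0.13 and 0.14, and the traffic, Rpd3L, elongation, Swr1, mitochondrial ribosome and diphthamide lists did not turn. With the first and second tag alone, 17 and 16 list medians moved by more than the tag error; those of the Swr1 list were 0.89 and 0.16, of the mitochondrial ribosome list -0.24 and -0.09, and of the Rpd3L list -0.54 and -0.93. No fit paired by temperature was made. With 1 array per group, no array was left out, and the number of arrays limits precision.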

Other observations

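Outside the gene lists, several strains with at least 6 spots per tag were higher in both tags; those named here were chosen after their values were seen. SLC1, an acyltransferase of phosphatidic acid synthesis, stood at 1.60 with cdc102-1 and 0.25 with CDC102, a difference of 1.36 at 28 degree and 0.93 at 30 degree. SCS3, a protein of lipid droplet formation, stood at 1.32 and -0.05, a difference of 1.36 at 28 degree and 0.35 at 30 degree. WHI2, a regulator of the stress response, stood at 1.07 and -0.15, a difference of 1.22 at 28 degree and 1.48 at 30 degree. Transporter-related strains without so many spots were SHR3, which packages amino acid permeases for exit from the endoplasmic reticulum, at 1.46, and FTR1, the high-affinity iron permease, at 1.38. On the lower side SOL2 stood at -0.48 and 1.33, a difference of -1.81 with tags of -1.76 and -1.86, and was at 1.86 at 30 degree.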
